A study of Mus musculus with 50 samples.

Results

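Transcripts of 9 lymphocyte genes were followed in 50 bulk RNA-seq libraries of mouse thyroid. The genes were chosen by symbol, and all 9 were found by Ensembl ID among the 52636 genes of the count table. They form 3 sets: the B cell genes Cd79a (ENSMUSG00000003379), Cd79b (ENSMUSG00000040592), Ms4a1 (ENSMUSG00000024673) and Ighm (ENSMUSG00000076617); the T cell genes Cd3e (ENSMUSG00000032093) and Cd8a (ENSMUSG00000053977); and Rag1 (ENSMUSG00000061311), Dntt (ENSMUSG00000025014) and Ptcra (ENSMUSG00000036858), which mark developing T cells of the thymus. The libraries, 5 per group, come from male C57BL/6 mice that had been given antibodies as a single intraperitoneal dose. RW is an antibody to ragweed, given at 40 mg/kg as isotype control. aJ1aJ2 blocks the Notch ligands Jag1 and Jag2 (20 mg/kg each). aN1aN2 blocks the receptors Notch1 and Notch2 (5 and 10 mg/kg), and aN1aN2aN3 adds an antibody to Notch3 (20 mg/kg). RW, aJ1aJ2 and aN1aN2 were sampled at 15 hours and at 5 days. The 7-day samples form a first set of RW and aJ1aJ2 and a second set of aJ1aJ2 and aN1aN2aN3; no RW group of the second set was analysed here. The mice were 10 to 14 weeks old per the treatment protocol and 10 to 12 weeks old per the design text. The antibodies reached the whole animal and were not confined to thyroid cells. Thyroid hormone injections are mentioned for the series, but no label assigns them to a mouse.

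B cells carry an antigen receptor made of immunoglobulin, whose IgM heavy chain is encoded by Ighm, and of the signalling chains encoded by Cd79a and Cd79b; Ms4a1 encodes CD20, a surface protein of maturing and mature B cells. T cells carry a receptor coupled to the CD3 chains, among them Cd3e, and cytotoxic T cells add the co-receptor chain encoded by Cd8a. In the thymus, precursors cut and rejoin their receptor genes with the recombinase encoded by Rag1, add bases at the joins with the polymerase encoded by Dntt, and test a first receptor chain together with the pre-T alpha chain encoded by Ptcra. Notch1 signalling directs precursors to the T lineage in the thymus, and Notch2 signalling is needed by marginal zone B cells of the spleen. The thymus, the parathyroids and neck muscle lie close to the thyroid, and ectopic thymic tissue in or beside the thyroid and parathyroid is common in mice.

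Promoters are shown for the thymocyte genes and Cd8a. Between 89.1% (Ptcra) and 99.8% (Rag1) of the counts of each of these 4 genes lay in the same 13 libraries, described below. Ptcra was nevertheless rare in most of these libraries. Cd3e, with 83.3% of its counts there, also had a promoter entry but is not shown. The RefSeq promoter table (build GRCm38.p6) held entries for 6 of the 9 genes. The 250 bases before the start of transcription are given, on the strand of the gene and from 5′ to 3′. Capitals mark matches, on either strand, to CAGNTG (the E-box bound by E2A and HEB), TGGGAA (the RBPJ core, through which Notch acts) and TGTGGT (RUNX).

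Rag1 (chr2:101649533-101649782, minus strand): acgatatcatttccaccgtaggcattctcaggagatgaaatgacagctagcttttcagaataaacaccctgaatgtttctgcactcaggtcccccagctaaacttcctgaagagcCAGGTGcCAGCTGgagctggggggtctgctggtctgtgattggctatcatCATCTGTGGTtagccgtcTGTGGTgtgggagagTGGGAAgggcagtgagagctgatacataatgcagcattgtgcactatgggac
Ptcra (chr17:46763713-46763962, minus strand): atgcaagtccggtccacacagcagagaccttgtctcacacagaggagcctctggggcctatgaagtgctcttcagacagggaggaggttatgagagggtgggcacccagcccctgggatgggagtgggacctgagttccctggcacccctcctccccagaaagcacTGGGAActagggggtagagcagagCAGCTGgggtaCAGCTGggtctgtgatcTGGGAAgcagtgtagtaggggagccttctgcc
Cd8a (chr6:71373177-71373426, plus strand): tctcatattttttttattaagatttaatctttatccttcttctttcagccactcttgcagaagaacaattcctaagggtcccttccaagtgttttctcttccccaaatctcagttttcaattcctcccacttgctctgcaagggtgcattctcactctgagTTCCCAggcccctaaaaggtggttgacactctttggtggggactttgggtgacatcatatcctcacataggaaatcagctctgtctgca
Dntt (chr19:41029025-41029274, plus strand): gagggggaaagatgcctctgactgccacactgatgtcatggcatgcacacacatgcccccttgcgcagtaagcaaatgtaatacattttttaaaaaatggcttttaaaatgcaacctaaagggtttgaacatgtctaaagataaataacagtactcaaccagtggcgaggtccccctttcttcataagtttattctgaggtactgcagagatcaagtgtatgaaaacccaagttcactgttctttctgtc

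Rag1 held 3 E-box matches, which start 135, 128 and 85 bases before the start of transcription, 2 RUNX matches at 81 and 67 bases, and 1 RBPJ match at 52 bases; the third E-box and the first RUNX match overlap. Ptcra held 2 E-box matches at 60 and 49 bases and 2 RBPJ matches at 84 and 32 bases. Cd8a held 1 RBPJ match at 89 bases, and Dntt held none of the 3 motifs. Matches are common: of the 32851 promoters of full length in the table, each with 250 bases before the start and the first bases after it, 44.8% hold CAGNTG, 21.6% hold TGGGAA and 14% hold TGTGGT. The EBF motif (by its palindromic consensus), the octamer ATGCAAAT and the TCF/LEF motif CTTTGA, searched in the same way, had no match in the 4 sequences shown. A match is a description of the letters and not evidence that a factor binds there.

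Library totals ranged from 15271242 to 52835846 counts. Levels are given as CPM, the usual scaling of a count to its library total. The labelled tissue was checked by its markers. Tg, the thyroglobulin gene, took 0.450% to 42.4% of the counts of a library, and the 9 skeletal muscle genes 0.0395% to 12.1%. Thyroid markers were thus present in every library but to very different extents. The control at 5 days labelled replicate 3 had the least Tg and the most muscle RNA of all 50 libraries. In the second set at 7 days, the 10 thyroid follicle genes summed to 12620 to 68211 CPM, lower than in any library of the first set (89880 to 368976 CPM). In bulk tissue, fewer cells of a type and less RNA per cell cannot be told apart. Nothing beyond the sample titles says that the replicates of a group are separate mice, so p-values measure the spread between these samples.

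On the deposited FPKM scale, which divides by gene length, Ighm had the highest median level over the 50 libraries (7.34 FPKM), followed by Cd79b (1.98). The other 7 genes were far lower. Cd3e, Cd79a and Cd8a had medians of 0.0573, 0.0454 and 0.0446 FPKM, and their ranges over libraries overlap. Ms4a1 (0.0144), Rag1 (0.00608) and Dntt (0.00328) came next, and the median of Ptcra was 0. In total counts over all libraries, Cd79a reached 541, Ms4a1 651 and Ptcra 183, against 70264 for Ighm. Counting error is therefore large for these 3 genes in most single libraries. It is smaller in the top library of each gene: replicate 3 of aJ1aJ2 at 5 days had 24.0% of the Cd79a and 20.3% of the Ms4a1 counts, and replicate 4 of aN1aN2 at 5 days 62.8% of the Ptcra counts.

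**Figure D1:**
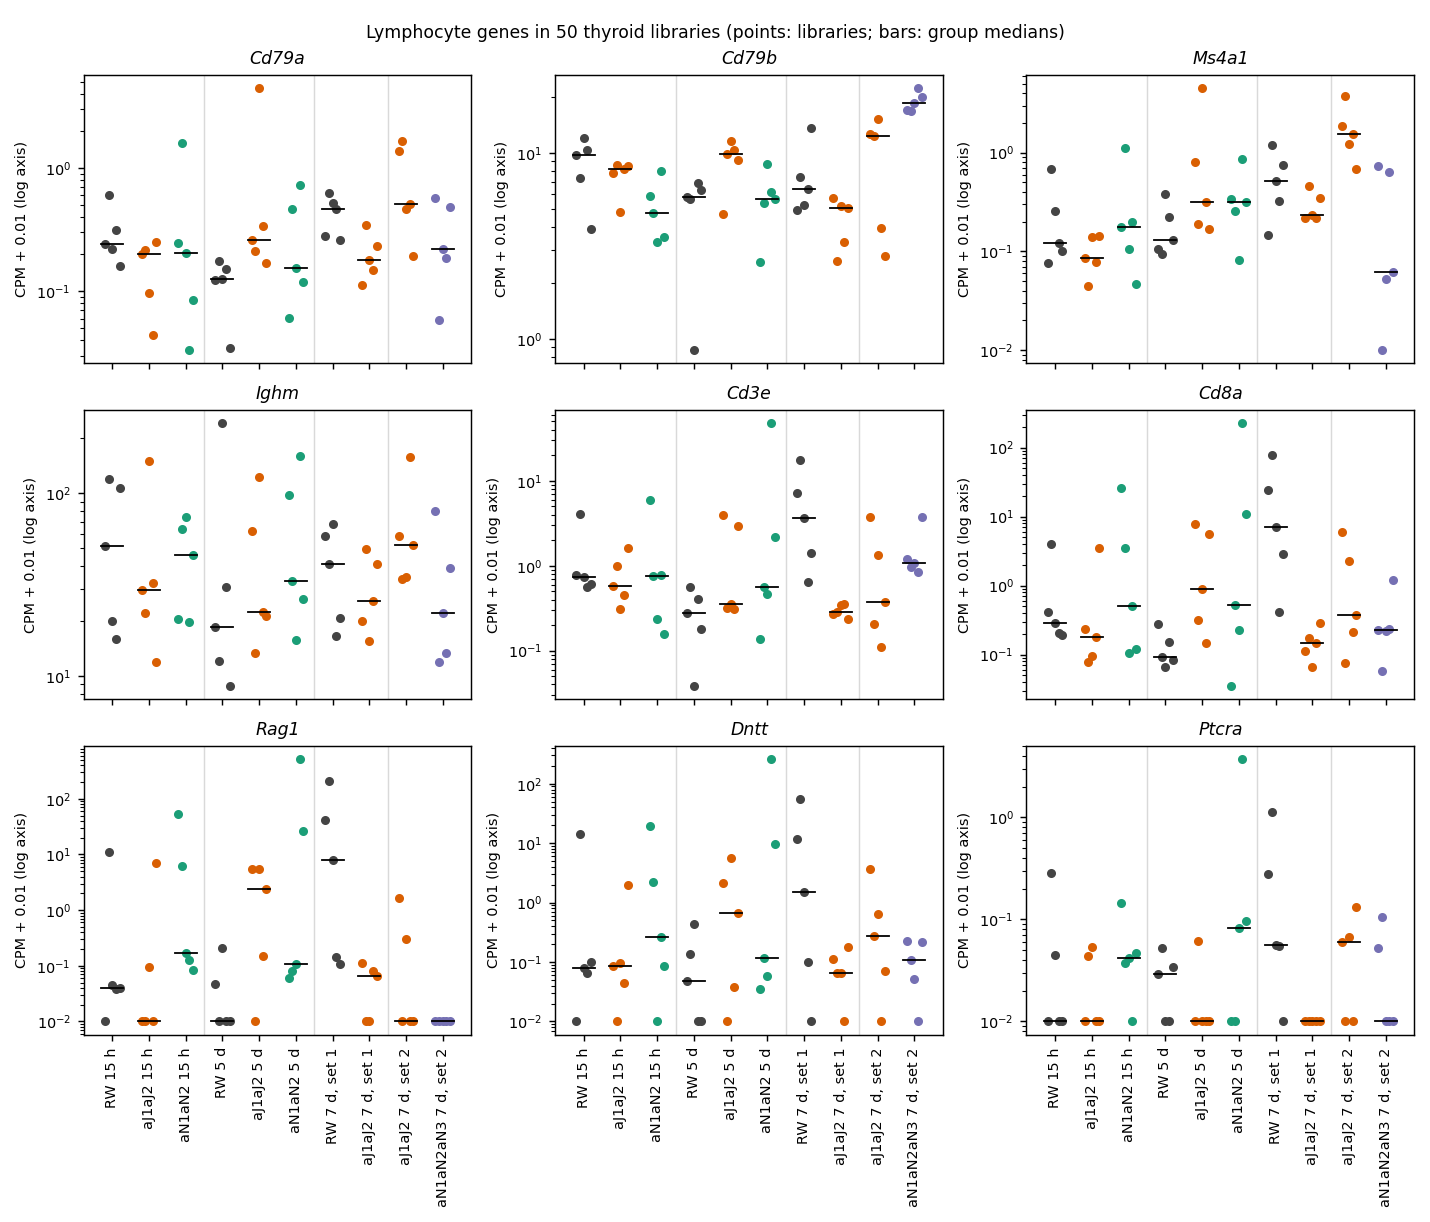
CPM of each of the 9 genes in all 50 libraries by group, on a log axis after adding 0.01; each point is 1 library and each bar is the median of 5 libraries. Cd79b and Ighm lie above the other genes in most libraries, but not in several of those with high Rag1. Within aN1aN2 at 5 days Rag1, Dntt and Cd8a spread from under 0.1 CPM to 520, 261 and 225 CPM.

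Rag1, the recombinase gene, was close to absent in most libraries and abundant in a few. It had 0 counts in 18 libraries, and 13 libraries exceeded 1 CPM. The lowest of these 13 had 1.62 CPM and the highest of the other 37 had 0.287 CPM. The 13 libraries held 99.8% of all Rag1 counts, 99.2% of Dntt counts and 89.1% of Ptcra counts. They were spread over 7 of the 10 groups: 3 each in RW at 7 days and aJ1aJ2 at 5 days, 2 each in aN1aN2 at 15 hours and at 5 days, and 1 each in RW at 15 hours, aJ1aJ2 at 15 hours and aJ1aJ2 of the second set. No library of RW at 5 days, of aJ1aJ2 in the first set at 7 days or of aN1aN2aN3 exceeded 1 CPM.

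At 15 hours, Rag1 in replicates 1 to 5 was 0, 11.1, 0.0349, 0.0279 and 0.0302 CPM in RW. It was 0, 0, 0.0866, 0 and 7.05 CPM in aJ1aJ2, and 53.5, 6.26, 0.161, 0.117 and 0.0744 CPM in aN1aN2. Each group thus had 1 or 2 high libraries beside others near 0, and the groups overlapped. At 5 days, Rag1 was 0.0379, 0, 0.201, 0 and 0 CPM in RW. It was 5.41, 0, 5.55, 0.138 and 2.40 CPM in aJ1aJ2, and 0.0510, 0.0697, 0.0958, 520 and 26.6 CPM in aN1aN2. The single library at 520 CPM, replicate 4 of aN1aN2, held 62.7% of all Rag1 counts of the study. At 7 days in the first set, Rag1 was 42.2, 206, 7.94, 0.136 and 0.0997 CPM in RW. It was 0.103, 0, 0, 0.0694 and 0.0560 CPM in aJ1aJ2, where 5 libraries together had 5 counts. Here 4 of 5 controls lay above every treated library, while the lowest control (0.0997 CPM) lay within the treated range. In the second set, Rag1 was 1.62, 0, 0.287, 0 and 0 CPM in aJ1aJ2. All 5 aN1aN2aN3 libraries had 0 counts, which allows a level of up to 0.0274 CPM (3 counts over the pooled libraries of the group, counting error only).

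Dntt, the template-free DNA polymerase of the joining step, was high in the same libraries as Rag1. It reached 261 CPM in replicate 4 of aN1aN2 at 5 days, 55.2 CPM in replicate 2 of RW at 7 days and 19.5 CPM in replicate 1 of aN1aN2 at 15 hours. Outside the 13 libraries it did not exceed 0.631 CPM. The proportion between both genes was not fixed: per 1000 Rag1 counts the 13 libraries had 187 to 2250 Dntt counts (median 364). The 3 libraries with more Dntt than Rag1 were replicate 2 of RW at 15 hours (1265), replicate 3 of aJ1aJ2 at 5 days (1019) and replicate 1 of aJ1aJ2 in the second set (2250). The last of these rests on 32 Rag1 counts.

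Ptcra, the pre-T alpha chain gene, was far rarer than Rag1 in the same libraries. It had 0 to 31.3 counts per 1000 Rag1 counts (median 4.31), and its highest level was 3.73 CPM, again in replicate 4 of aN1aN2 at 5 days. RW at 7 days had 0.270, 1.12, 0.0464, 0.0453 and 0 CPM. All 5 aJ1aJ2 libraries of that set had 0 counts, which allows up to 0.0294 CPM over the group. With so few counts no difference in Ptcra could be tested by the model, and it passed the filter on low counts in 0 comparisons.

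Genes of thymic epithelium, the stroma that supports developing T cells, were measured beside these values. Of a list of 10, Prss16, Psmb11 and Foxn1 are described here. The summed CPM of the whole list was not highest where Rag1 was. It was highest in the 5 aN1aN2aN3 libraries (1863 to 2768 CPM), which had 0 counts of Rag1. At 15 hours it was 866 CPM in replicate 3 of RW, with Rag1 below 1 CPM, and 491 CPM in replicate 2, with 11.1 CPM of Rag1. The 13 libraries held 90.1% of the counts of Prss16, the thymus-specific serine protease, and 88.3% of those of Psmb11, the thymoproteasome subunit. They held 39.1% of the counts of Foxn1, the thymic epithelial regulator that is also active in skin. Prss16 was 1.65 to 124 CPM in the 13 libraries and 0.0573 to 23.6 CPM in the other 37. The library at 23.6 CPM, replicate 5 of RW at 7 days, also had 7.68 CPM of Psmb11 but only 0.0997 CPM of Rag1, so epithelial genes were not always accompanied by Rag1. Per 1000 Rag1 counts, Prss16 ranged from 184 (replicate 4 of aN1aN2 at 5 days) to 9923 (replicate 5 of aJ1aJ2 at 5 days).

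Rag1 and Dntt are also used by B cell precursors of the bone marrow, so the surrogate light chain gene Igll1 was examined. Replicate 3 of aJ1aJ2 at 5 days had 150 counts of Igll1 and 41 of Vpreb1, the partner chain, and 401 CPM for 7 marrow precursor genes, a list chosen after its values were seen. The other 12 of the 13 libraries had 0 to 5 counts of Igll1. In that replicate Cd3e was only 0.345 CPM and Cd8a 0.897 CPM beside 5.55 CPM of Rag1. Replicate 2 of aN1aN2 at 15 hours showed a smaller marrow sum of 53.0 CPM. How much of the Rag1 in these 2 libraries came from thymus and how much from marrow was not tested.

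**Figure D2:**
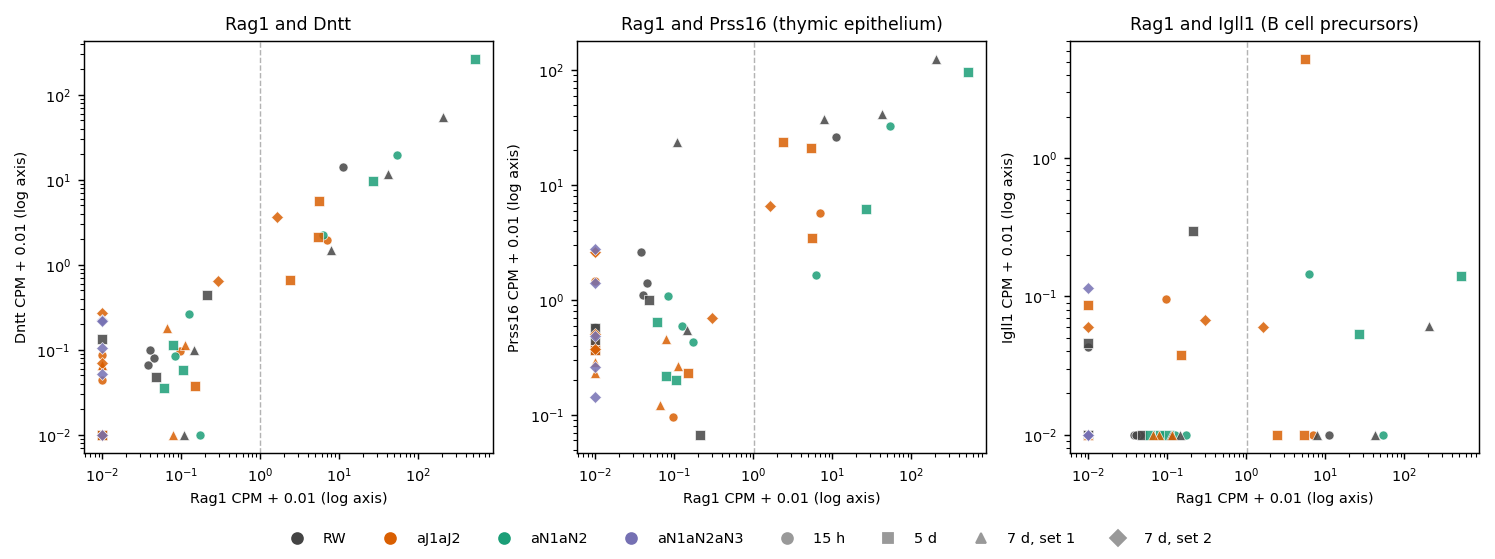
Rag1 CPM against Dntt, the thymic epithelial gene Prss16 and the B cell precursor gene Igll1 in all 50 libraries, on log axes; each point is 1 library (colour for treatment, shape for time set) and the dashed line marks 1 CPM of Rag1. Dntt and Prss16 are high in most of the 13 libraries to the right of the line, whereas Igll1 stands out in 1 of them.

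Cd3e, a chain of the CD3 complex of all T cells, was detected in every library. The 13 libraries with Rag1 above 1 CPM held 83.3% of its counts. In the other 37 it ranged from 0.0287 to 3.76 CPM, so a low level of T cell RNA was present where Rag1 was near 0. The highest of these values, 3.76 CPM in replicate 5 of aN1aN2aN3, came with 0 counts of Rag1 and 1.20 CPM of Cd8a. The other 4 libraries of that group had 1.21, 0.962, 1.06 and 0.843 CPM of Cd3e and 0.215, 0.0481, 0.212 and 0.222 CPM of Cd8a. In these 5 libraries together Rag1 had 0 counts, Dntt 12 and Ptcra 3.

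Cd8a, the co-receptor chain of cytotoxic T cells and of most thymocytes, followed Rag1 more closely. The 13 libraries held 97.3% of its counts, and the other 37 had at most 2.89 CPM. That value belongs to replicate 5 of RW at 7 days, the library with thymic epithelial genes but little Rag1. Per 1000 Rag1 counts the 13 libraries had 161 to 3656 counts of Cd8a (median 502) and 62.1 to 2313 counts of Cd3e (median 169). Cd4, the co-receptor of helper T cells, had 90.5% of its counts there.

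Cd79a, the B cell receptor chain CD79A, was low throughout. Its median per group lay between 0.115 and 0.500 CPM, and only 4 of 50 libraries exceeded 1 CPM. At 5 days it was 0.114, 0.167, 0.115, 0.143 and 0.0243 CPM in RW. In aJ1aJ2 it was 0.252, 0.204, 4.48, 0.331 and 0.158 CPM. Every treated library except replicate 5 was above every control, but the high group mean comes from replicate 3, which also had the marrow genes described above. The same library had 4.55 CPM of Ms4a1 (CD20), against 0.158 to 0.797 CPM in the other 4 of its group. Replicate 2 of aN1aN2 at 15 hours had 1.59 CPM of Cd79a and 1.11 CPM of Ms4a1, the highest of its group for both.

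In the second set at 7 days, Ms4a1 was 1.87, 3.73, 1.21, 1.55 and 0.666 CPM in aJ1aJ2. It was 0.732, 0, 0.0423, 0.621 and 0.0522 CPM in aN1aN2aN3. The groups overlapped only at their edges, where the highest aN1aN2aN3 library lay above the lowest aJ1aJ2 library. Cd79a in the same libraries was 1.36, 1.64, 0.459, 0.500 and 0.182 CPM in aJ1aJ2 and 0.559, 0.0481, 0.212, 0.177 and 0.470 CPM in aN1aN2aN3, with wide overlap.

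Cd79b encodes the partner of CD79A in the receptor, but no relation between both RNAs was detected over the 50 libraries. On the FPKM scale the ratio of Cd79b to Cd79a had a median of 46.7 over the 50 libraries and ranged from 3.65 to 491. Cd79a had at least 10 counts in only 14 of the 50 libraries, so the counting error of most ratios is large. How far counting error hides a relation was not tested. The lowest ratio was in replicate 3 of aJ1aJ2 at 5 days, the library with most Cd79a. Pearson's r of both genes over the 50 libraries (log2 CPM + 1) was 0.23 (permutation p = 0.104, adjusted p = 0.168), and Spearman's rho was 0.26 (permutation p = 0.0739, adjusted p = 0.151). Leaving out the 2 libraries farthest from the median of Cd79b gave r = 0.25. Within the 4 time sets r ranged from -0.08 to 0.39, and no adjusted p was below the 0.05 threshold. These values depend on few libraries: without the 2 farthest of each set, r was -0.27 at 15 hours, 0.47 at 5 days, and 0.65 and -0.81 in the first and second set at 7 days. Adjusted values in this and the next paragraphs cover 35 relations, all with 100000 permutations (2-sided).

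Cd79b instead moved with the tissue content of the library, in the direction opposite to muscle RNA. Over all 50 libraries its level fell as the sum of the 9 skeletal muscle genes rose (r = -0.47, permutation p = 0.00052, adjusted p = 0.00303; rho = -0.50, permutation p = 0.00025, adjusted p = 0.00175), with r = -0.45 without the 2 farthest libraries. At 15 hours r was -0.70 (permutation p = 0.00474, adjusted p = 0.0151; rho = -0.65, n = 15) and -0.62 without the 2 farthest. In the first set at 7 days r was -0.80 (permutation p = 0.00687, adjusted p = 0.02; rho = -0.76, n = 10) and -0.71 without the 2 farthest. At 5 days r was -0.52 (permutation p = 0.0407, adjusted p = 0.0889) and in the second set at 7 days -0.48 (permutation p = 0.178, adjusted p = 0.249), and neither passed the threshold after adjustment. The control with the least Tg and the most muscle RNA, replicate 3 at 5 days, had the lowest Cd79b of all libraries (0.860 CPM). Whether thyroid cells themselves carry Cd79b transcripts was not tested.

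Ighm was the most abundant of the 9 genes and differed widely among replicates of the same group. In RW at 5 days it was 18.4, 12.0, 241, 30.8 and 8.82 CPM, and 241 CPM is the value of the muscle-rich replicate 3. Ighm followed the sum of the 9 skeletal muscle genes over all 50 libraries (r = 0.78, permutation p = 1e-05, adjusted p = 0.000117; rho = 0.77, permutation p = 1e-05, adjusted p = 0.000175). The p of 1e-05 is the smallest that these permutations can give. Without the 2 farthest libraries r was 0.82. Within sets, r was 0.85 at 15 hours (permutation p = 0.00018, adjusted p = 0.00147; rho = 0.86) and 0.95 at 5 days (permutation p = 1e-05, adjusted p = 0.000117; rho = 0.91). In the first set at 7 days r was 0.59 (permutation p = 0.0756, adjusted p = 0.147; rho = 0.68), and in the second 0.44 (permutation p = 0.197, adjusted p = 0.255; rho = 0.35), and neither passed the threshold. Ighm was less tightly related to Igkc, the kappa light chain gene with which it is expressed in B cells and plasma cells: r was 0.34 (permutation p = 0.0164, adjusted p = 0.0411) and rho 0.47 (permutation p = 0.00091, adjusted p = 0.00531), with r = 0.43 without the 2 farthest. Within the 4 sets r of Ighm with Igkc was 0.26 to 0.41, with adjusted p of 0.19 to 0.391.

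Cd79a and Ms4a1 did move together, with r = 0.86 over all libraries (permutation p = 1e-05, adjusted p = 0.000117), rho = 0.61 (permutation p = 1e-05, adjusted p = 0.000233) and r = 0.73 without the 2 farthest. At 15 hours and at 5 days the relation rests on the 2 farthest libraries: r fell from 0.91 (permutation p = 0.00197, adjusted p = 0.00721) to 0.07 and from 0.95 (permutation p = 0.00179, adjusted p = 0.00721) to 0.25 without them. In the second set at 7 days r was 0.83 (permutation p = 0.00206, adjusted p = 0.00721) and 0.62 without the 2 farthest, and in the first set 0.69 (permutation p = 0.0247, adjusted p = 0.0575) and 0.71.

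**Figure D3:**
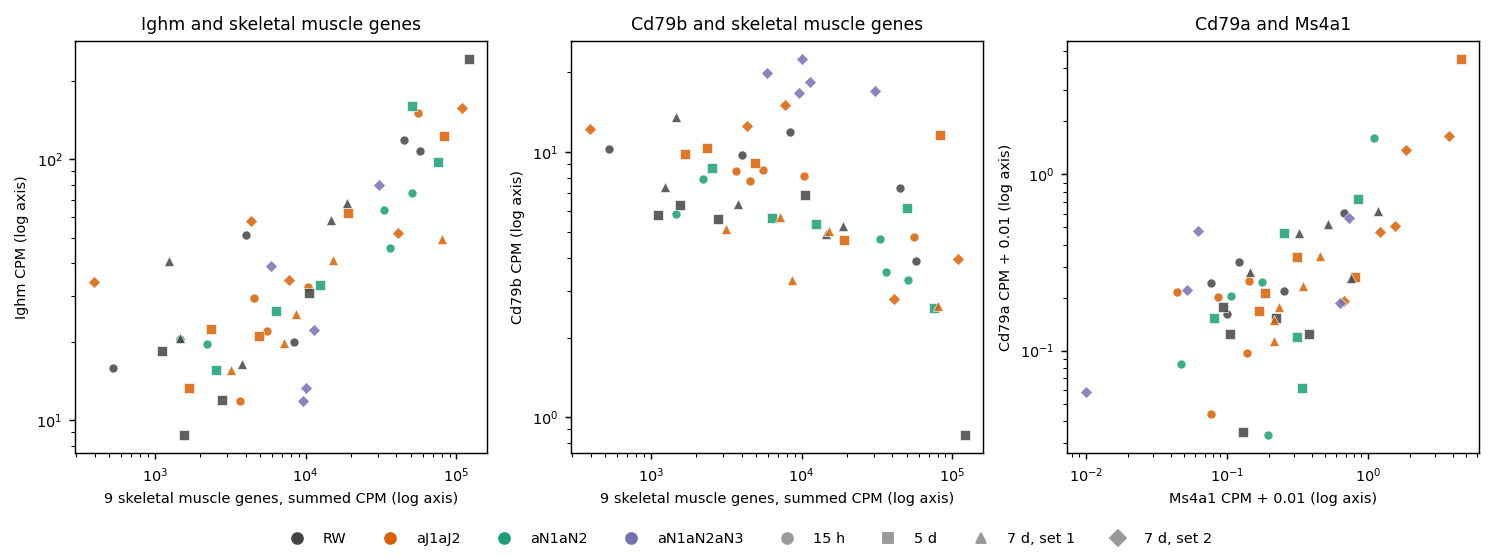
Pairs of measures in all 50 libraries on log axes: Ighm against the summed CPM of 9 skeletal muscle genes, Cd79b against the same sum, and Cd79a against Ms4a1; each point is 1 library, its colour gives the treatment and its shape the time set. Ighm rises with muscle RNA, Cd79b falls, and the highest Cd79a and Ms4a1 values fall in 1 library at 5 days.

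The first comparisons ask whether blocking ligands or receptors changed the 9 genes at 15 hours. No member passed edgeR's quasi-likelihood test there. Cd79b, Ighm, Cd3e and Cd8a passed the filter on low counts (at least 10 counts in enough libraries), and the other 5 genes did not. For aJ1aJ2 against RW, 0 of 4 members were called at an adjusted p below 0.05, where 0.573% of all genes tested were called. Of the members 0 had an unadjusted p below 0.05, against 1220 of all 18513 genes tested. For aN1aN2 against RW, 0 of 4 were called (1.68% of all genes), and 1 had an unadjusted p below 0.05 (2674 of all genes). For aN1aN2 against aJ1aJ2, 0 of 4 were called (0.13% of all genes), and 0 had an unadjusted p below 0.05 (2321 of all genes). DESeq2 also called 0 members in these 3 comparisons, where it called 319, 941 and 556 of all 52636 genes.

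Cd79b came nearest at 15 hours. It was 9.74, 7.33, 11.9, 10.3 and 3.90 CPM in RW, and 5.84, 4.72, 3.29, 7.93 and 3.54 CPM in aN1aN2. All but 1 of the treated libraries lay below the 4 higher controls, and 1 low control overlapped with them. The log2 fold change was -0.75 (SE 0.26, edgeR adjusted p = 0.188). With skeletal muscle RNA as a covariate, an alternative added after seeing the data, it was -0.72 with an adjusted p of 0.0463 by edgeR. aJ1aJ2 had 7.78, 8.56, 4.81, 8.12 and 8.48 CPM, and its log2 fold change against RW was -0.21 (SE 0.26, 95% interval -0.72 to 0.30, adjusted p = 1.00). Cd8a in aN1aN2 against RW had a log2 fold change of 2.52 (SE 1.56, adjusted p = 0.500). It rests on replicate 1 of aN1aN2, at 25.7 CPM, without which it was -0.056.

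At 5 days, 7 members passed the filter and none was called in any comparison. For aJ1aJ2 against RW, 0 of 7 were called (0.179% of all genes) and 2 had an unadjusted p below 0.05, against 2167 of all 18434 genes tested. For aN1aN2 against RW, 0 of 7 were called (0% of all genes) and 4 had an unadjusted p below 0.05 (1848 of all genes). For aN1aN2 against aJ1aJ2, 0 of 7 were called (0% of all genes) and 3 had an unadjusted p below 0.05 (778 of all genes). DESeq2 called 2 members, Cd8a and Rag1, for aN1aN2 against RW, where it called 491 of all 52636 genes. It called 0 members for aJ1aJ2 against RW (484 genes) and for aN1aN2 against aJ1aJ2 (78 genes).

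The thymocyte and T cell genes had large estimates in aN1aN2 at 5 days, which came from 2 of 5 treated libraries and above all from replicate 4. Cd8a was 0.265, 0.0837, 0.0573, 0.143 and 0.0729 CPM in RW, and 0.0255, 0.522, 0.216, 225 and 10.8 CPM in aN1aN2. Replicates 4 and 5 were high, and the other 3 treated libraries were near the controls. The log2 fold changes against RW were 10.53 for Rag1 (SE 2.85, adjusted p = 0.219), 8.27 for Dntt (SE 2.59, adjusted p = 0.274), 8.10 for Cd8a (SE 2.19, adjusted p = 0.219) and 4.88 for Cd3e (SE 1.52, adjusted p = 0.270), all by edgeR. Without replicate 4 they were 6.73, 4.04, 4.37 and 1.53. Without all libraries above 1 CPM of Rag1, Cd8a was at 0.80 and Cd3e at 0.39, and Rag1 and Dntt no longer passed the filter. Leaving out libraries by Rag1 removes the highest values of the T cell genes by construction.

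For aJ1aJ2 against RW at 5 days, the log2 fold changes were 5.30 for Rag1, 4.23 for Cd8a (SE 1.93, adjusted p = 0.415), 3.39 for Dntt, 2.37 for Ms4a1 (adjusted p = 0.344) and 2.30 for Cd3e by edgeR. Without the libraries above 1 CPM of Rag1, those of Cd8a, Ms4a1 and Cd3e were 0.69, 0.18 and 0.09. Cd79b was 5.77, 5.61, 0.860, 6.90 and 6.32 CPM in RW and 4.66, 9.82, 11.6, 10.4 and 9.13 CPM in aJ1aJ2. Its highest values were in 4 treated libraries, and the groups overlapped through replicate 1. The log2 fold change was 0.72 (adjusted p = 0.506), and an exact permutation test of log2(CPM + 1) gave a 2-sided p of 0.0476, where 0.00794 is the smallest possible. By the same test, with no adjustment over the 9 genes, p was 0.0159 for Cd79a and 0.0238 for Cd8a, and 0.0873 to 0.746 for the other 6.

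Ighm at 5 days shows how 1 library can set the direction. Its log2 fold change was -1.003 for aJ1aJ2 (SE 1.03, adjusted p = 0.714) and -0.50 for aN1aN2 against RW. Without the muscle-rich control, replicate 3, it was 1.35 and 1.84. Neither passed the test by edgeR in either form.

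Interaction contrasts compared the treatment effects at 5 days with those at 15 hours, and 8 members passed the filter. For aJ1aJ2, 0 of 8 were called by edgeR (0.636% of all genes) and 2 had an unadjusted p below 0.05, against 2159 of all 19337 genes tested. They were Cd79a (a change of the log2 effect by 4.00) and Ms4a1 (3.79), both highest in replicate 3 of aJ1aJ2 at 5 days. The log2 fold change of Ms4a1 at 5 days was 0.60 to 3.06 over fits with 1 library left out. For aN1aN2, 0 of 8 were called (1.8% of all genes) and 4 had an unadjusted p below 0.05 (2855 of all genes). They were Rag1 (8.24), Dntt (7.78), Cd8a (5.65) and Cd3e (4.76), all highest in replicate 4 of aN1aN2 at 5 days. DESeq2 called 0 members for aJ1aJ2 and 1, Cd3e, for aN1aN2, where it called 485 and 947 of all 52636 genes.

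In the first set at 7 days, the T cell genes Cd3e and Cd8a were lower with aJ1aJ2 than in controls without overlap, but Cd3e did not pass edgeR's test and Cd8a was below its filter. Cd3e was 7.13, 17.6, 3.62, 0.634 and 1.40 CPM in RW and 0.257, 0.279, 0.336, 0.347 and 0.224 CPM in aJ1aJ2. Every control lay above every treated library. The means were 6.08 ± 6.92 and 0.289 ± 0.0521 CPM (SD, n = 5 each). The log2 fold change was -4.26 (SE 0.86, edgeR adjusted p = 0.122), and the exact permutation test gave p = 0.00794, the smallest it allows. Over the 10 fits that each leave out 1 library, the adjusted p ranged from 0.0501 to 0.277. Cd8a was 24.5, 77.0, 7.06, 0.407 and 2.89 CPM in RW and 0.103, 0.167, 0.0559, 0.139 and 0.280 CPM in aJ1aJ2, again without overlap (exact permutation p = 0.00794). These permutation p-values were not adjusted over the 9 genes. How many of all genes separate the groups in this way was not counted. The thymocyte genes overlapped between the groups, with exact permutation p of 0.0159 for Rag1, 0.0476 for Ptcra and 0.127 for Dntt.

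Cd8a did not pass the filter in this fit, nor did Cd79a, Ms4a1, Rag1, Dntt and Ptcra. Of the 3 members tested, 0 were called by edgeR (0% of all genes) and 2 had an unadjusted p below 0.05, against 1968 of all 16954 genes tested. DESeq2, which called 479 of all 52636 genes here, called 4 members lower: Cd3e (-4.28), Cd8a (-7.11), Rag1 (-10.00) and Dntt (-7.39). RW held 3 libraries above 1 CPM of Rag1 and aJ1aJ2 held none. Without those 3 controls, the log2 fold change of Cd3e was -1.60 (edgeR adjusted p = 0.599). This removes the highest Cd3e values of the controls by construction and leaves fewer controls to test. The lowest control, at 0.634 CPM of Cd3e, stayed in and lay above the highest treated library (0.347 CPM). Cd79b was 4.90, 7.40, 5.25, 6.38 and 13.5 CPM in RW and 5.71, 2.62, 5.15, 3.30 and 5.04 CPM in aJ1aJ2, with overlap. Its log2 fold change was -0.66 (SE 0.26, adjusted p = 0.378). How far a piece of thymus attached to the control thyroids accounts for these differences was not tested.

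In the second set at 7 days, 1 of 4 members tested was called for aN1aN2aN3 against aJ1aJ2, where 19.6% of all genes were called. Ms4a1, with the values given above, was lower in aN1aN2aN3 by a log2 fold change of -2.68 (SE 0.81, edgeR adjusted p = 0.0378). The means were 0.289 ± 0.356 and 1.80 ± 1.17 CPM (SD, n = 5 each), from 33 and 157 counts, and the exact permutation p was 0.0159. The call is not firm: over 10 fits without 1 library each, the adjusted p ranged from 0.0205 to 0.0868, and it passed in 3 of them. It was also lost with no filter on low counts and without the library above 1 CPM of Rag1 (-2.72, adjusted p = 0.0636).

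Cd79b went the other way in the same comparison. It was 12.6, 12.2, 15.1, 3.95 and 2.79 CPM in aJ1aJ2 and 17.0, 16.8, 18.4, 22.4 and 19.9 CPM in aN1aN2aN3. All 5 aN1aN2aN3 libraries lay above all 5 aJ1aJ2 libraries and were the highest of the study. The means were 18.9 ± 2.32 and 9.33 ± 5.57 CPM (SD, n = 5 each). The log2 fold change was 0.99 (SE 0.33), with an adjusted p of 0.0555 by edgeR, above the threshold, and an exact permutation p of 0.00794. DESeq2 called it (1.01, adjusted p = 0.0227), where it called 4946 of all 52636 genes. With the muscle genes as covariate, the log2 fold change was 1.14 (edgeR adjusted p = 0.0109). The sum of the thyroid follicle genes was itself higher in aN1aN2aN3 (39202 to 68211 CPM) than in aJ1aJ2 (12620 to 30434 CPM), without overlap. Ighm (-1.29, adjusted p = 0.237) and Cd3e (0.44, adjusted p = 0.709) did not pass.

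The aJ1aJ2 groups of both 7-day sets have the same treatment label. Their difference holds all that differed between the sets, which cannot be told apart here. By edgeR 2 of 7 members were called, both higher in the second set, while 64% of all genes were called. Ms4a1 was 0.206, 0.446, 0.224, 0.208 and 0.336 CPM in the first set, below all 5 libraries of the second. Its log2 fold change was 2.21 (SE 0.71, adjusted p = 0.00975; exact permutation p = 0.00794). Cd79a differed by 1.61 (SE 0.58, adjusted p = 0.0195), and this call depends on single libraries. It was lost without replicate 1 (1.41, adjusted p = 0.0535) or replicate 2 (1.26, adjusted p = 0.0717) of the second set and without replicate 4 of the first (1.48, adjusted p = 0.051). It was also lost without all 4 libraries above 1 CPM of Rag1 in the fit of both sets, 3 of which were RW (1.40, adjusted p = 0.0811). Cd8a was at 2.99 (adjusted p = 0.0683) and Dntt at 3.08, neither called. Ms4a1 thus differed by 2.21 between sets under 1 treatment label and by -2.68 between treatments within the second set; whether these sizes differ was not tested.

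**Figure D4:**
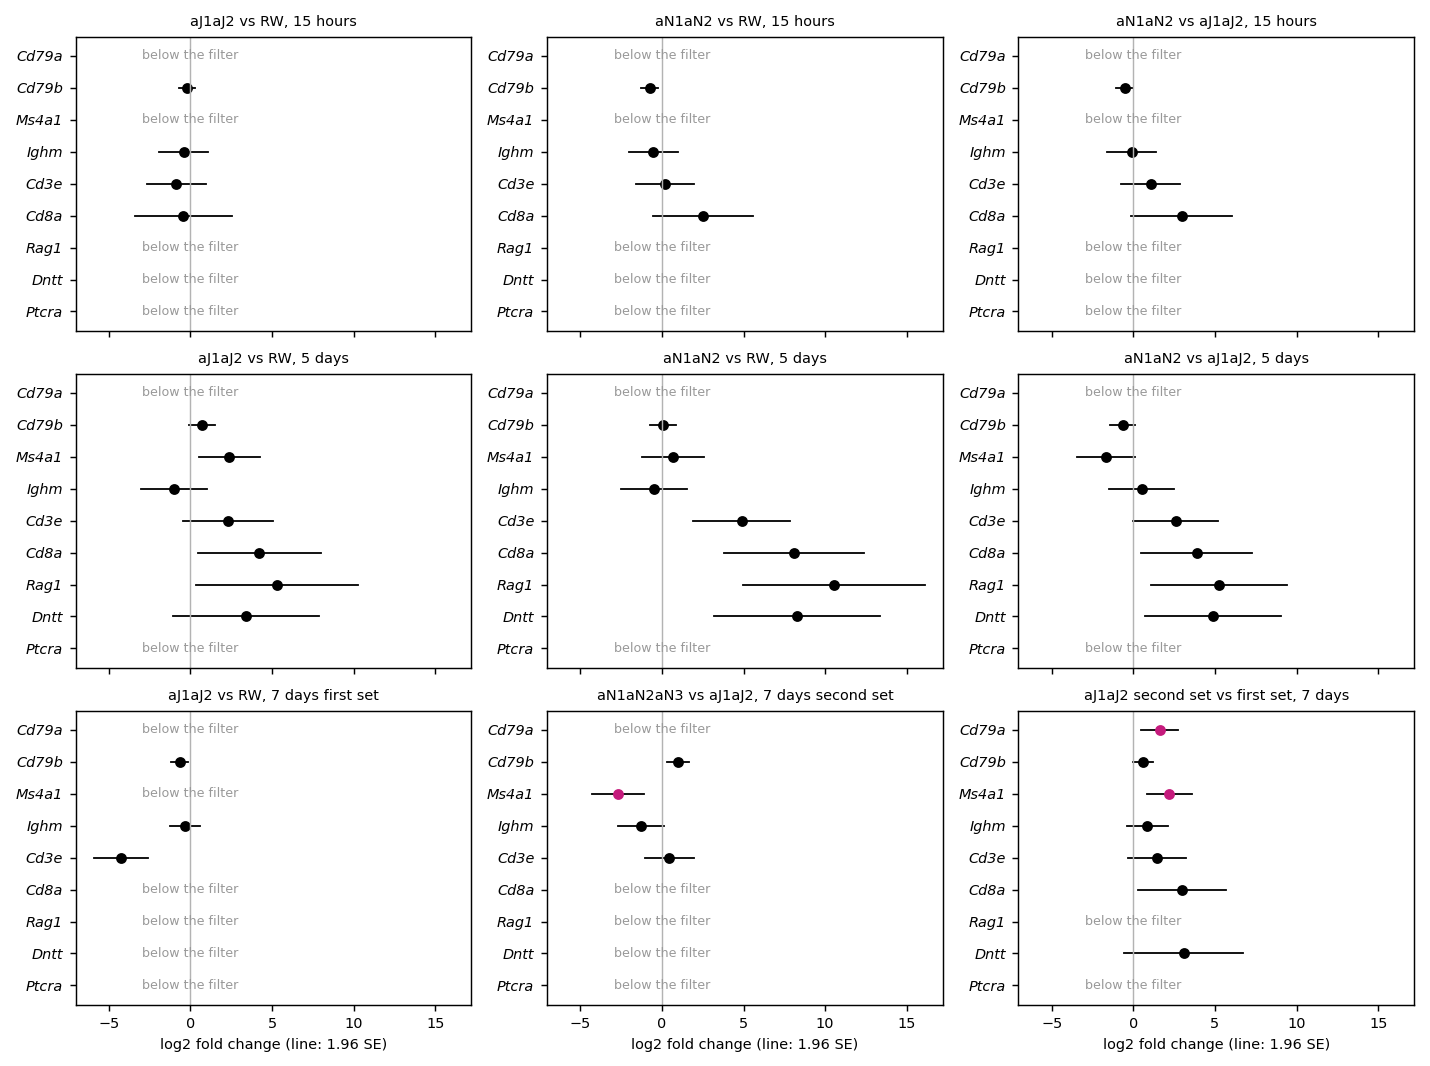
Log2 fold change by edgeR with its 95% interval for each member in 9 comparisons; coloured points passed an adjusted p of 0.05 and members below the filter on low counts are marked. Ms4a1 is called in the second set at 7 days, and Cd79a and Ms4a1 between the 2 sets, while the T cell and thymocyte genes have wide intervals.

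Few other genes of the B cell, T cell and thymus lists passed the test at 15 hours, 5 days and in the first set at 7 days. At 15 hours, where 0.573% of all genes were called for aJ1aJ2 against RW, 1 of 13 other B cell genes tested was higher with aJ1aJ2, Cd72, an inhibitory co-receptor of B cells (1.56, SE 0.30, adjusted p = 0.0319). Of 10 Notch-linked lymphocyte genes 1 was lower in that comparison, Notch3, a Notch receptor (-0.89, SE 0.18, adjusted p = 0.0443). None of 18 other T cell genes was called in the 3 comparisons by edgeR. Among thymic epithelium genes, Dll4, the Notch ligand of the thymus that endothelial cells also carry, was lower with aN1aN2 than RW (-1.04, SE 0.18, adjusted p = 0.00847), 1 of 9 tested, where 1.68% of all genes were called. It was also lower with aN1aN2 than aJ1aJ2 (-0.999, adjusted p = 0.0446), where 0.13% of all genes were called. At 5 days, 0 of 21 other T cell genes were called, with a median log2 fold change of 1.83 for aJ1aJ2 and 4.33 for aN1aN2 against RW. The medians over all genes tested were -0.06 and -0.07. In the first set at 7 days, 0 of 13 other T cell genes were called, all 13 estimates were negative and their median was -3.37, against 0.01 over all genes. The 8 thymic epithelium genes tested had a median of -2.61, also with 0 called.

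For aN1aN2aN3 against aJ1aJ2, where 19.6% of all genes were called, 2 of 11 other B cell genes were lower and 0 higher. They were Bank1, a B cell adaptor (-3.64, SE 0.68, adjusted p = 0.00486), and Iglc2, a lambda light chain gene (-3.12, SE 0.87, adjusted p = 0.0295). Iglc2 has near-identical copies, so its counts are uncertain. The median of the 11 genes was -0.37, against -0.07 over all genes. Of 6 plasma cell genes 1 was lower, Derl3 (-2.26, adjusted p = 0.000493), and of 16 other T cell genes 1, Thy1 (-1.44, adjusted p = 0.0149). In these 3 lists the share called was thus no higher than over all genes. Of 10 other thymocyte genes 3 were lower: Cd1d1 (-2.29, adjusted p = 0.000493), Il2ra (-1.61, adjusted p = 0.00581) and Endou (-1.46, adjusted p = 0.00363). Of 8 thymic epithelium genes 1 was higher, Ctsl (1.24, adjusted p = 0.00812), over the 50 libraries the gene most like Cd79b (Spearman's rho 0.85). Rag1 had 0 counts in aN1aN2aN3. The other thymocyte genes summed to 225 CPM in replicate 3 of RW at 5 days, with 0.201 CPM of Rag1. Their sum was 186 CPM in replicate 1 of RW at 7 days, with 42.2 CPM of Rag1. Whether the calls of either list came from thymic cells was not tested. Of 9 Notch-linked lymphocyte genes, Il2ra, which is also among the other thymocyte genes, was lower. Myc (1.25, adjusted p = 0.0104) and Notch2 (0.91, adjusted p = 0.0252) were higher. Of 13 receptor signalling genes 1 was lower, Blnk (-0.89, adjusted p = 0.0218). Between the sets, 4 of 15 other B cell genes were higher in the second and 1 lower, and 7 of 22 other T cell genes were higher and 1 lower. Both shares are below the 64% of all genes called there. The largest called difference of the B cell list was that of Iglc2 (5.52), followed by Cd72 (3.68).

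Genes whose CPM was most like that of a member over the 50 libraries were ranked by Spearman's rho among 21382 genes with at least 10 counts in 5 libraries, as a description. Among the closest 5 to Cd79a were Iglc3 (0.70), Iglc2 (0.68), Cd5l (0.66) and Ighd (0.66). Among the closest 5 to Cd3e were Sh2d2a (0.90), Lck (0.88), Trac (0.88) and Cd3d (0.85). The closest 5 to Rag1 were Gm44175 (0.74), BB031773 (0.72), Trbv2 (0.72), Gm29461 (0.72) and Themis (0.72). The list of Cd79a holds immunoglobulin genes beside Cd5l, and that of Cd3e holds T cell genes. In the list of Rag1, Trbv2 and Themis are T cell genes, and the cell type of the others was not examined. Lists for other members were added after their values were seen. Ms4a1 was closest to Ighd (0.82), which encodes the IgD heavy chain, and Cd8a to Cd8b1 (0.88), its partner chain. The list of Cd79b was led by Ctsl (0.85), Kantr (0.85) and Snx31 (0.84), and that of Ighm by Gm26740 (0.87), Gm15179 (0.87) and Cbfb (0.87), with no B cell gene among the first 5 of either. In the annotation used for symbols, exons of Cd3e overlap Gm48719 on the opposite strand and those of Rag1 overlap B230118H07Rik on the same strand. Their counts are uncertain to that extent, since the use of strand in counting is not given in the sources used here.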

How the data were processed

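Total RNA of mouse thyroid, extracted with Trizol and a column, was sequenced as single-end reads of 50 bases, per the labels' protocols. GSNAP and limma are named, without versions, per the submitters' processing notes. Genome build, annotation, counting program and strand use: not given in the sources used here. Deposited files hold read counts by gene (whole numbers, not normalized) and, in a second table from the authors, FPKM values (scaled to gene length and depth). Within each of 2 blocks of 30 and 20 libraries the FPKM scaling was proportional to median-of-ratios size factors, and over all libraries the proportion varied by 8.70% (coefficient of variation), so FPKM was tested only within a block. Of the 52636 Ensembl IDs in both tables, 52403 had a symbol in GENCODE M21 and 233 had none. Groups and replicate numbers came from the sample titles, and the 7-day sets were told apart by the series of sample IDs there. No 2 replicates agreed within sampling noise (smallest chi-square per degree of freedom 11.4 over 100 pairs). Same-numbered replicates were checked for pairing: in 0 of 8 pairs of groups did all 5 correlate above 0.1, so the main test has no block.

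The counts were tested with edgeR 4.0.16 in R 4.3.3 (TMM, filterByExpr with minimum count 10 and minimum total 15, robust quasi-likelihood test, 2-sided, Benjamini-Hochberg over all genes tested, threshold 0.05). Groups of 1 time point or set shared a fit; both 7-day sets were fitted together for the difference between sets, and the 30 libraries at 15 hours and 5 days for the interactions. The procedure was tested on simulated data. Levels are CPM of the unscaled library total. Single values were compared by an exact permutation test of log2(CPM + 1), and relations across libraries on the same scale. The exact test was not adjusted over the 9 genes. How many of all genes had groups without overlap was not counted in any comparison. Alternatives were other scalings, DESeq2 1.42.0, quality weights and FPKM values (pseudocount 0.1 or 1) in limma 3.58.1, a replicate block, no filter, fits of only the groups compared and each replicate left out. A muscle covariate and the removal of libraries above 1 CPM of Rag1 were added after seeing the data. Every member is named in each comparison where it passed the filter, and up to 3 called genes per other list and direction may be named. The 9 genes, the lists and the tests were chosen with earlier results of these data known. Results that need certain genes are not reported here, including 5 of the 35 relations.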

Additional observations from a re-analysis of the deposited data

Results flagged for a closer look

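Each of the 9 genes was examined in each of the 10 groups of 5 libraries, 90 sets of values in all, for a highest or lowest library far from the other 4. The rule marks about 1 in 20 groups of 5 normally distributed values, and here 36 of the 90 were marked. CPM values are skewed, several genes are high in the same libraries, and sets of equal values could not be marked. The 2 rates therefore cannot be compared. For the thymocyte and T cell genes the marked library was nearly always 1 with Rag1 above 1 CPM. Replicate 4 of aN1aN2 at 5 days stood apart for Rag1 (520 CPM), Dntt (261 CPM), Cd8a (225 CPM), Cd3e (47.4 CPM) and Ptcra (3.73 CPM). Replicate 2 of RW at 7 days stood apart for Rag1 (206 CPM), Dntt (55.2 CPM) and Ptcra (1.12 CPM). Replicate 1 of aN1aN2 at 15 hours stood apart for Rag1 (53.5 CPM), Cd8a (25.7 CPM), Dntt (19.5 CPM), Cd3e (5.88 CPM) and Ptcra (0.134 CPM). Replicate 2 of RW at 15 hours stood apart for Dntt (14.0 CPM), Rag1 (11.1 CPM), Cd3e (4.04 CPM), Cd8a (4.04 CPM) and Ptcra (0.278 CPM). Replicate 5 of aJ1aJ2 at 15 hours stood apart for Rag1 (7.05 CPM), Cd8a (3.54 CPM) and Dntt (1.94 CPM), and replicate 1 of aJ1aJ2 in the second 7-day set for Dntt (3.64 CPM) and Rag1 (1.62 CPM).

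Some marked libraries had little Rag1. Replicate 5 of aN1aN2aN3 stood apart for Cd3e (3.76 CPM) and Cd8a (1.20 CPM) with 0 counts of Rag1. The muscle-rich replicate 3 of RW at 5 days had the highest Ighm (241 CPM), the lowest Cd79b (0.860 CPM) and, at a few counts, the highest Rag1 of its group (0.201 CPM). Replicate 3 of aJ1aJ2 at 15 hours had the highest Ighm (150.0 CPM) and the lowest Cd79b (4.81 CPM) of its group, and replicate 4 of aJ1aJ2 in the second 7-day set had the highest Ighm (157 CPM). Ptcra in replicate 2 of aJ1aJ2 at 5 days (0.0509 CPM) rests on 2 counts. For the B cell genes, replicate 3 of aJ1aJ2 at 5 days stood apart for Ms4a1 (4.55 CPM) and Cd79a (4.48 CPM), and replicate 2 of aN1aN2 at 15 hours for Cd79a (1.59 CPM) and Ms4a1 (1.11 CPM).

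The direction of 3 genes in aJ1aJ2 against RW differed between times, in that all 5 treated libraries lay on 1 side of the control mean at 1 time and on the other side at another. For Cd79a the difference of mean log2(CPM + 1) was -0.17 at 15 hours, 0.58 at 5 days and -0.25 in the first set at 7 days. For Cd3e it was 0.75 at 5 days and -1.92 at 7 days, and for Cd8a 1.31 and -3.09. Of 5 libraries each, 3 of aJ1aJ2 and 0 of RW exceeded 1 CPM of Rag1 at 5 days. In the first set at 7 days, 0 of aJ1aJ2 and 3 of RW did. In the fits without these libraries, given above, Cd3e and Cd8a at 5 days and Cd3e at 7 days kept their direction with smaller log2 fold changes. Such fits remove the highest values by construction, so they cannot show how far these libraries set the direction. For Cd79a, the interaction contrast of 5 days with 15 hours did not pass edgeR's test after adjustment. The differences between 5 and 7 days were not tested.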

How the results depend on the processing

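The number of members called kept within 1.5 times its reported value under other scalings and with the replicate block in all 11 comparisons. It changed for aN1aN2 against RW with the muscle covariate at 15 hours (1, Cd79b) and with DESeq2 at 5 days (2, with Cd3e and Dntt given no adjusted p), and for aJ1aJ2 against RW in the first 7-day set with DESeq2 (4) or 1 library left out (0 to 1; Cd8a without RW replicate 4). For aN1aN2aN3 against aJ1aJ2 it was 2 with DESeq2, quality weights, the muscle covariate or either FPKM pseudocount, adding Cd79b, 0 with no filter or without the Rag1 libraries, and 0 to 2 over libraries left out. Between the 7-day sets it was 1 without the Rag1 libraries or with only the groups compared, and 1 to 3 over libraries left out. For the interactions it was 1 for aJ1aJ2 with quality weights (Cd79b) and 1 for aN1aN2 with DESeq2.

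Log2 fold changes that changed sign were all uncalled, and the cause was not tested. For aJ1aJ2 against RW at 15 hours, Ighm was 0.23 without the Rag1 libraries, Cd8a 0.00047 with quality weights and -2.84 to 1.61 over libraries left out, and Cd3e -1.20 to 0.23. For aN1aN2 against RW at 15 hours, Ighm was 0.24 with quality weights, Cd8a -0.056 to 4.57 over libraries left out, and Cd3e -0.74 without the Rag1 libraries, -0.45 with the muscle covariate, -0.072 on log2(CPM + 1) and -1.52 to 1.28 over libraries left out. For aN1aN2 against aJ1aJ2 at 15 hours, Ighm was 0.61 with quality weights, 0.00062 with the muscle covariate, 0.23 on log2(CPM + 1) and -0.44 to 0.95 over libraries left out, and Cd3e -0.55 without the Rag1 libraries and -0.71 to 1.44 over libraries left out. Against RW at 5 days, Ighm was 0.33 (aJ1aJ2) and 0.82 (aN1aN2) with quality weights, 0.10 and 0.57 on FPKM with pseudocount 0.1, 0.032 and 0.47 with pseudocount 1, 0.32 and 0.74 on log2(CPM + 1), and -1.72 to 1.35 and -0.97 to 1.84 over libraries left out. Cd79b in aN1aN2 was -0.053 with quality weights and -0.18 to 0.22 over libraries left out. For aN1aN2 against aJ1aJ2 at 5 days, Ighm was -0.12 with the muscle covariate, Ms4a1 -2.15 to 0.076 and Cd3e -0.77 to 3.16 over libraries left out. At 7 days Ighm was 0.89 without the Rag1 libraries of the first set, and Cd3e in aN1aN2aN3 was -0.12 with quality weights and -0.14 to 1.56 over libraries left out.

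The replicate numbers did not pair the samples by the check. With the replicate block, Cd3e in aN1aN2 against RW was -0.22 at 15 hours, and at 5 days Ighm was 1.02 and Cd79b -0.013. Genes called with the block, in the order of the comparisons, were 36, 186 and 29 at 15 hours, 1, 0 and 0 at 5 days, 0 and 2100 within the 7-day sets, 11940 between them, and 44 and 282 for the interactions.

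Calls over all genes varied more than those of the members. The 106, 311 and 24 called at 15 hours became 0 to 319, 29 to 941 and 0 to 556 under the alternatives and 35 to 127, 120 to 444 and 9 to 44 over libraries left out. The 33, 0 and 0 at 5 days became 0 to 3475, 0 to 1507 and 0 to 78, and 0 to 197, 0 to 9 and 0 to 1. The 0 and 3614 within the 7-day sets became 0 to 621 and 2100 to 8214, and 0 to 20 and 2042 to 4305. The 12530 between sets became 10602 to 15137 and 11890 to 13020, and the 123 and 348 of the interactions 0 to 3200 and 15 to 1797, and 20 to 271 and 224 to 511. FPKM was not run for comparisons across blocks (aN1aN2 at 15 hours and the interactions). Depth limits Cd79a, Ms4a1 and Ptcra, which had fewer than 1000 counts each over 50 libraries.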
